A study of Homo sapiens with 6 samples.

Results

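The 10 genes described here encode beta-catenin (CTNNB1), parts of the machinery that destroys it (APC, AXIN1, AXIN2, GSK3B and BTRC), the WNT feedback inhibitor NKD1, and the DNA-binding partners of beta-catenin in the nucleus (TCF7, TCF7L1 and TCF7L2). They were taken by gene symbol from the deposited table of read counts, and all 10 were found among its 22004 genes. The question was whether their mRNA levels differ between H1299 cells treated with AVJ16 and control cells.

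In cells that receive no WNT signal, APC and the axins hold beta-catenin next to casein kinase 1 and GSK3B, which phosphorylate its amino-terminal end. BTRC, the substrate-binding subunit of a ubiquitin ligase, recognises the phosphorylated stretch and marks the protein for the proteasome. A WNT signal inactivates this destruction complex, and beta-catenin then accumulates, enters the nucleus and turns TCF factors from repressors into activators. AXIN2, NKD1 and TCF7 are induced by this pathway in many cell types, so they are read both as components and as outputs. Much of the control acts on protein stability, which mRNA counts do not measure.

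The data come from H1299, an established human non-small cell lung carcinoma line labelled as epithelial-like and wild type. Cells received 1.5 µM AVJ16, a small molecule described by the study as an inhibitor of the RNA-binding protein IGF2BP1, or a corresponding amount of the solvent DMSO, in both cases for 48 h. Each group held 3 libraries of poly(A) RNA. The control libraries carry the column letters A, B and C of the table and the AVJ16 libraries the letters D, E and F, and the groups of these letters were read from the condition bar of the heat map of the study. Biological repeats, with RNA-seq in triplicate, are stated in its methods, while the labels name no separate culture for each library. The p-values therefore measure the spread between these libraries, which may be technical.

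The depth was 19353830 to 30253721 counts per library. Library D stood apart, with 11.93% of its counts on mitochondrially encoded genes against 5.125% to 6.66% in the other 5 libraries, and the values of the 10 genes that rest on it are given with and without it. Keratins KRT8 and KRT18 and vimentin were abundant, but the epithelial markers EPCAM and CDH1 were near 0, at 0.432 and 1.45 CPM in DMSO, where CPM is the TMM-scaled count per 1e6 counts. The 4 carcinoma line markers KRT8, KRT18, VIM and EPCAM summed to 6100 to 7070 CPM in DMSO and 8300 to 8550 CPM in AVJ16. Most of these sums was VIM, which averaged 5700 CPM in DMSO and 7490 CPM in AVJ16. The 5 of 8 markers of other cell types that were analysed summed to 5.78 to 6.54 and 4.43 to 7.02 CPM. The part of these differences in the results was not tested.

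The stretch of beta-catenin that the complex acts on is shown because CTNNB1, BTRC, GSK3B and the scaffold genes all meet at it. It covers codons 30 to 46 of the reference coding sequence and lies in an exon on the plus strand of GRCh38, chr3:41224600-41224650. Capitals mark the codons of the phosphorylated serines 33, 37 and 45 and threonine 41.
CTNNB1 codons 30 to 46: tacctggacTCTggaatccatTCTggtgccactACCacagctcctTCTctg
Casein kinase 1 acts on serine 45 and GSK3B on the other 3 sites, and BTRC binds once serines 33 and 37 carry phosphate. The sequence is that of the reference genome, and the counts do not show whether the cells carry it unchanged.

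Treated cells had less mRNA for beta-catenin, BTRC, TCF7 and NKD1. Of the 10 genes, all of which passed the filter on low counts, 4 fell, 0 rose and 6 did not pass an adjusted p of 0.05 (quasi-likelihood test of edgeR, Benjamini-Hochberg adjustment over 16330 genes). Over all genes tested, 8.66% were lower and 5.79% higher at that threshold. The median log2 fold change of the 10 genes was -0.48, against -0.01 over all genes. The libraries of the groups did not overlap for 5 of the 10, against 37.1% of all genes tested. The 10 genes were chosen with earlier results of these data known, so these comparisons with all genes are not independent evidence. Leaving out A, B, C or F brought the count of falls to 2. Leaving out D brought it to 6 falls and 1 rise, while 19.6% of all genes were then lower and 17.6% higher. With library size alone as the scaling, 19.2% of the genes called over the whole table were higher, against 40.1% with TMM.

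**Figure D1:**
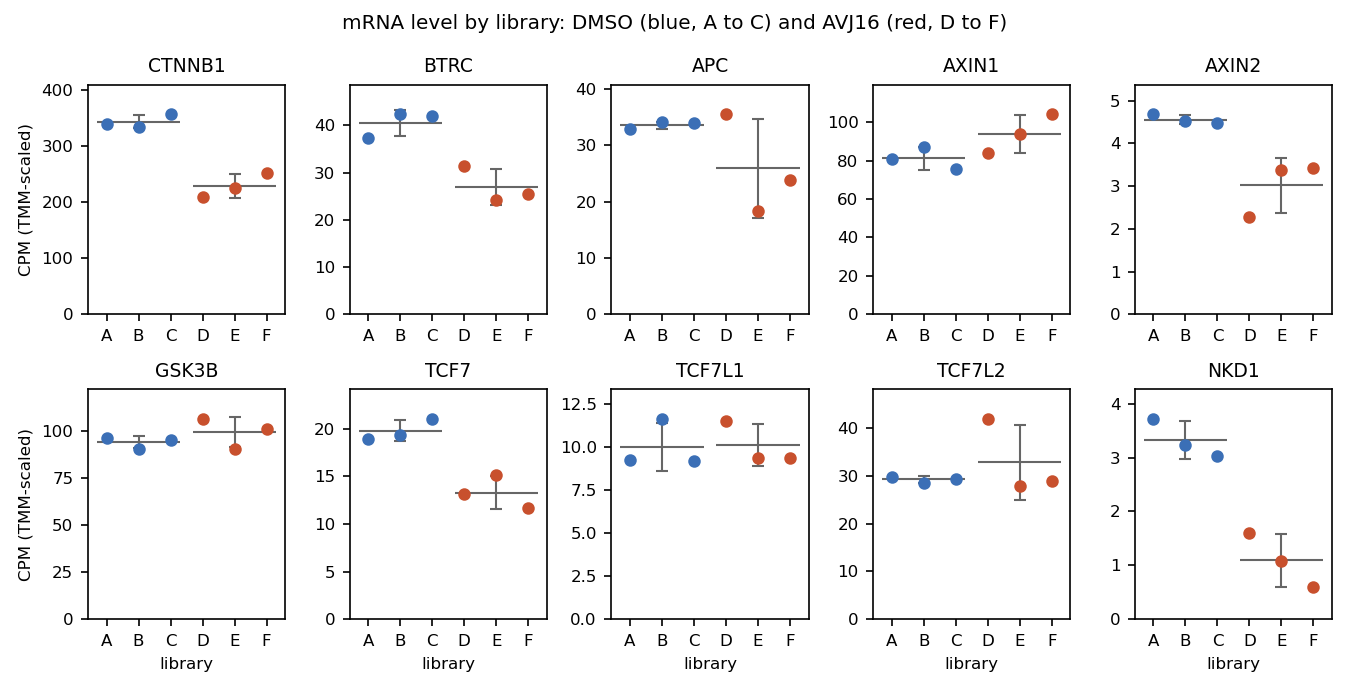
Level of each of the 10 mRNAs (y axis, TMM-scaled CPM, starting at 0) in the 6 libraries (x axis), with DMSO in blue and AVJ16 in red. Horizontal lines are group means and bars the SD of 3 libraries. CTNNB1, BTRC, AXIN2, TCF7 and NKD1 lie lower in every AVJ16 library than in any DMSO library, while APC and TCF7L2 are set apart by library D.

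CTNNB1 (ENSG00000168036, GRCh38 chromosome 3, 41194741 to 41260096, plus strand) was the most abundant of the 10 per length of exon. Its level was 340, 335 and 357 CPM in A, B and C, and 210, 226 and 252 CPM in D, E and F. Every treated library was thus below every control library, and the mean fell by 33.3%. The log2 fold change was -0.58 (SE 0.10, 95% interval -0.81 to -0.36, adjusted p = 0.00674, edgeR). Leaving out single libraries gave -0.64 to -0.53, and the call was kept in all of the settings tried. JUP, or plakoglobin, the nearest relative of beta-catenin and a partner of cadherins, also fell, by 0.46 on the log2 scale (adjusted p = 0.0293, edgeR), from 35.4 ± 3.08 to 25.8 ± 1.73 CPM (mean ± SD, n = 3). Leaving out any library but D lost its call, at an adjusted p of at most 0.112. The log2 ratio of CTNNB1 to JUP within a library was 3.28 ± 0.16 for DMSO and 3.15 ± 0.038 for AVJ16 (mean ± SD, n = 3), and the ranges of the groups overlapped.

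BTRC (ENSG00000166167, chromosome 10, 101354033 to 101557321, plus strand) fell by nearly the same proportion as its substrate. It was counted at 37.4, 42.3 and 41.9 CPM in A, B and C and at 31.3, 24.2 and 25.5 CPM in D, E and F. The groups did not overlap, and D was the highest of the treated libraries. This gave a log2 fold change of -0.59 (SE 0.13, 95% interval -0.88 to -0.30, adjusted p = 0.0180, edgeR). Leaving out any library but D lost this call, at adjusted p of 0.0535 to 0.0981, and it held without D, at -0.70 (adjusted p = 3.84e-05). FBXW11, the paralog that also recognises phosphorylated beta-catenin, averaged 118 ± 2.77 CPM in the controls and 118 ± 10.2 CPM in the treated cells (SD, n = 3), and the 95% interval of its log2 fold change was -0.22 to 0.22. The log2 ratio of BTRC to FBXW11 was -1.69, -1.45 and -1.51 in A, B and C and -1.95, -2.15 and -2.31 in D, E and F. So BTRC was the less abundant of the pair in each library, by counts not scaled for length, and more so in each treated library.

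APC (ENSG00000134982, chromosome 5, 112707518 to 112846239, plus strand), the large scaffold lost in most colorectal cancers, had a treated library apart from the other treated ones. Its level was 32.9, 34.1 and 33.9 CPM in A, B and C, 35.5 CPM in D, 18.3 CPM in E and 23.8 CPM in F. D was the highest of all 6 libraries, whereas E and F were below every control. With all libraries the log2 fold change was -0.38 (SE 0.21, 95% interval -0.85 to 0.09, adjusted p = 0.256, edgeR). Without D it was -0.67 (SE 0.11, adjusted p = 0.000207, edgeR). The mitochondrial share of D, given above, stood apart in the same library, and its part in this was not tested. APC2, a paralog at a far lower level, was at 3.35, 3.79 and 4.0 CPM in A, B and C and at 1.92, 1.87 and 1.94 CPM in D, E and F. It fell by 0.96 (log2; SE 0.16, adjusted p = 0.00673, edgeR), and D lay close to E and F.

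The axins, the limiting scaffolds of the complex, had fold changes of opposite sign. AXIN1 (ENSG00000103126, chromosome 16, 287440 to 352723, minus strand) is expressed in most cells regardless of the pathway. It was at 80.8, 87.3 and 75.5 CPM in A, B and C and at 83.9, 93.6 and 104 CPM in D, E and F. The groups overlapped through D, and the log2 fold change was 0.21 (SE 0.11, 95% interval -0.04 to 0.46, adjusted p = 0.247, edgeR). Without D it was 0.28 and passed, at an adjusted p of 0.0173 in edgeR.

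AXIN2 (ENSG00000168646, chromosome 17, 65528563 to 65561648, minus strand) is the axin that beta-catenin induces. It was at 4.68, 4.52 and 4.49 CPM in A, B and C and at 2.28, 3.37 and 3.42 CPM in D, E and F, from 102, 136, 92, 50, 81 and 102 counts. All treated libraries were below all controls, with D the lowest. The log2 fold change of -0.59 (SE 0.18, 95% interval -1.0 to -0.17) did not pass, at an adjusted p of 0.0639 in edgeR. It passed without D at -0.43 (adjusted p = 0.0360), with library size alone at -0.69 (0.0402), and with sample weights in voom at -0.47 (0.01). These settings also called more genes lower over the whole table, at 3287, 2196 and 3737 against 1414. In every other setting AXIN2 did not pass, at adjusted p of 0.0576 to 0.201 in edgeR and 0.0957 in DESeq2. AXIN2 relative to AXIN1 went from a log2 ratio of -4.15 ± 0.10 in DMSO to -4.97 ± 0.21 in AVJ16 (mean ± SD, n = 3), with no overlap between groups.

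GSK3B (ENSG00000082701, chromosome 3, 119821321 to 120094994, minus strand), the kinase of the complex, was nearly level. It was at 96.2, 90.1 and 95.1 CPM in A, B and C and at 106, 90.3 and 101 CPM in D, E and F. The groups overlapped. The log2 fold change was 0.08, or -0.03 with library size alone as the scaling, and its 95% interval of -0.14 to 0.30 did not reach the size of the falls of CTNNB1 and BTRC. The paralog GSK3A, which can replace it in the complex, was at 120, 140 and 110 CPM in A, B and C and at 175, 153 and 144 CPM in D, E and F. Its groups did not overlap, but the log2 fold change of 0.35 (95% interval 0.08 to 0.63) did not pass, at an adjusted p of 0.0869 in edgeR. It passed without D at 0.27 (adjusted p = 0.0362).

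**Figure D2:**
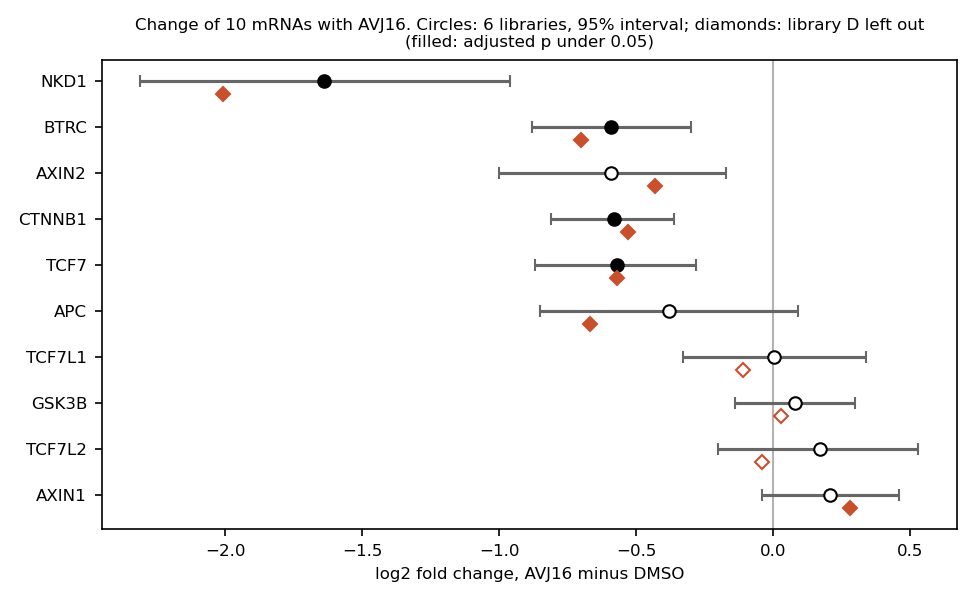
Log2 fold change of each mRNA (x axis, AVJ16 minus DMSO) from all 6 libraries, as circles with 95% intervals, and without library D, as diamonds. Filled symbols passed an adjusted p of 0.05. NKD1 lies farthest from 0, at -1.64, and APC moves from -0.38 to -0.67 and AXIN1 from 0.21 to 0.28 when D is left out.

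NKD1 (ENSG00000140807, chromosome 16, 50548396 to 50649249, plus strand) binds Dishevelled, the protein that passes the signal from the receptor to the destruction complex, and restrains it. It had the largest fold change of the 10 and the lowest level. Its level was 3.71, 3.23 and 3.03 CPM in A, B and C and 1.60, 1.08 and 0.603 CPM in D, E and F, from 81, 97, 62, 35, 26 and 18 counts. The groups lay far apart, with the highest treated library at 1.60 CPM and the lowest control at 3.03 CPM. The log2 fold change was -1.64 (SE 0.30, 95% interval -2.31 to -0.96, adjusted p = 0.00920, edgeR), and 0.992% of all genes tested changed by more. Single libraries moved it between -2.01 without D and -1.29 without F, and the call was kept. The paralog NKD2 was at 6.24, 7.12 and 4.93 CPM in A, B and C and at 3.65, 5.32 and 5.26 CPM in D, E and F, so that its groups overlapped. Its log2 fold change was -0.36 (95% interval -0.81 to 0.09, adjusted p = 0.254, edgeR). The log2 ratio of NKD1 to NKD2 was -0.70 to -1.14 in DMSO and -1.19 to -3.12 in AVJ16, with D the treated library closest to the controls.

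Of the TCF factors, TCF7 fell and the other members did not pass. TCF7 (ENSG00000081059, chromosome 5, 134114681 to 134151865, plus strand), known as TCF-1 in T cells, was at 18.9, 19.4 and 21.0 CPM in A, B and C and at 13.1, 15.1 and 11.7 CPM in D, E and F. The groups did not overlap. The log2 fold change was -0.57 (SE 0.13, 95% interval -0.87 to -0.28, adjusted p = 0.0197, edgeR), and leaving out A, B, C or F lost the call, at adjusted p of 0.0694 to 0.0955. Without D it was -0.57 (adjusted p = 0.00158). SKP1, transcribed the other way, overlaps 2.08% of the exonic bases of TCF7.

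TCF7L1 (ENSG00000152284, chromosome 2, 85133392 to 85310387, plus strand), known as TCF-3 and largely a repressor, was at 9.26, 11.6 and 9.17 CPM in A, B and C and at 11.5, 9.35 and 9.38 CPM in D, E and F. The groups covered nearly the same range. Its log2 fold change was 0.0027 (95% interval -0.33 to 0.34), and its sign turned under several settings given in the closing section. TCF7L2 (ENSG00000148737, chromosome 10, 112950247 to 113167678, plus strand), known as TCF-4 and the main effector in intestinal epithelium, was at 29.9, 28.5 and 29.4 CPM in A, B and C, 41.9 CPM in D, 27.9 CPM in E and 28.9 CPM in F. D alone was high, and E and F were close to the controls. With D its log2 fold change was 0.17 (95% interval -0.20 to 0.53, adjusted p = 0.526, edgeR), and without D it was -0.04 (adjusted p = 0.724). LEF1, the remaining factor of the family, was at 19.6, 21.2 and 16.8 CPM in A, B and C, 18.9 CPM in D, 13.9 CPM in E and 13.6 CPM in F. It did not pass with all libraries, at -0.32 (adjusted p = 0.211, edgeR), and passed without D, at -0.49 (adjusted p = 0.00281).

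Within the family, TCF7 and LEF1 held a lower share, and TCF7L2 a higher one, in every AVJ16 library than in any control. Shares are parts of a common sum, so lower shares of some factors raise those of the others. The level of TCF7L2 itself was 28.5 to 29.9 CPM in the controls, 41.9 CPM in D, and 27.9 and 28.9 CPM in E and F. The sum of the 4 levels, each as CPM per kilobase of exon, was 12.1, 12.7 and 11.7 in A, B and C and 13.6, 10.4 and 10.1 in D, E and F, and the groups overlapped. TCF7 supplied 15.6%, 15.1% and 17.9% of it in the controls and 9.49%, 14.5% and 11.5% in D, E and F. TCF7L2 supplied 36.8%, 33.3% and 37.4% in the controls and 45.7%, 40.1% and 42.4% in the treated libraries. LEF1 went from 29.4 ± 2.18% to 25.3 ± 0.403% (mean ± SD, n = 3). For these 3 genes the groups did not overlap, whereas TCF7L1 overlapped at 17.3% to 20.6% and 19.1% to 21.0%. The exact two-sided permutation p was 0.10 for TCF7, TCF7L2 and LEF1 and 0.30 for TCF7L1 (n = 3 in each group), and 0.10 is the smallest value that 3 against 3 allows. The lengths are those of all annotated exons, so factors with long alternative exons are understated.

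**Figure D3:**
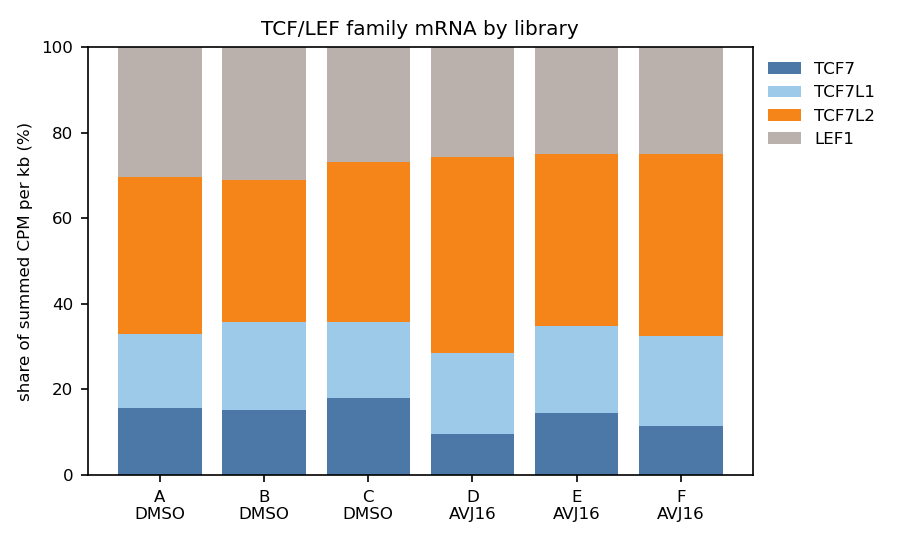
Share of each TCF/LEF factor (y axis, percent of the summed CPM per kilobase) in each library (x axis, with its group). TCF7L2 holds 33.3% to 37.4% in the DMSO libraries and 40.1% to 45.7% in the AVJ16 libraries, and TCF7 at most 14.5% in the AVJ16 libraries.

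The windows around the start sites of these genes were searched for the short core that TCF factors bind, on either strand. Its forms were taken as CTTTGAA and as CTTTGAT, and likewise as CTTTGTA and as CTTTGTT. RefSeq windows (GRCh38.p14, 250 bases before to 50 after a start) were matched for 7 of the 10 genes, with 11 windows in all. BTRC, AXIN2 and NKD1 were not matched. The core was found in 2 of the 11 windows, or 18.2%, against 13.8% of 35116 windows of all genes and 9.9% of the 18507 windows of genes in the table. Both lie before internal starts, 1 of the 2 starts of TCF7 and 1 of the 3 of TCF7L2, and they are shown as the only matches found. A link between the core and the mRNA changes was not tested. The 250 bases before each start are printed on the plus strand, with the core in capitals, for chr5:134123368-134123617 (TCF7, 50 bases before the start and read on the minus strand) and chr10:113126383-113126632 (TCF7L2, 133 bases before the start).
TCF7 internal start: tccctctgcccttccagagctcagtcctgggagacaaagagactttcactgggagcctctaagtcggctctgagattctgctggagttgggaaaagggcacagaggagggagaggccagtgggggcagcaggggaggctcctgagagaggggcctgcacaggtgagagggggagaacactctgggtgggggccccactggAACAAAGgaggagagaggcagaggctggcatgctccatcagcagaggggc
TCF7L2 internal start: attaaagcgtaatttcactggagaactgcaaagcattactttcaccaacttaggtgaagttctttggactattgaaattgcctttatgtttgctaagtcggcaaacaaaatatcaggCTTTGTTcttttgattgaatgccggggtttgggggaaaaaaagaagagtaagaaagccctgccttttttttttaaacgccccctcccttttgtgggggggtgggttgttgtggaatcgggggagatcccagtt
The matches describe letters only, and counts per gene do not tell which start was used.

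Per kilobase of exon, CTNNB1 led in DMSO at 29.3 CPM, followed by AXIN1 at 10.8, BTRC at 6.12, GSK3B at 5.25, TCF7L2 at 4.35, APC at 2.47, TCF7L1 at 2.26, TCF7 at 1.96, AXIN2 at 0.878 and NKD1 at 0.191. APC and TCF7L1 overlapped between control libraries, as did TCF7L1 and TCF7, and the other neighbours in this order did not. In AVJ16 the order of CTNNB1, at 19.5, and AXIN1, at 12.4, was kept, but their distance was smaller. BTRC, at 4.08, came after GSK3B, at 5.54, and TCF7L2, at 4.89, and it overlapped with TCF7L2 and not with GSK3B. By CPM not scaled for length, GSK3B was above BTRC in DMSO already, at 93.8 against 40.5, so that change of order depends on the exon lengths used. TCF7L2 was below BTRC in DMSO by CPM too, at 29.3, and above it in AVJ16, at 32.9 against 27.0. Library D raised that mean of TCF7L2. In E and F alone TCF7L2 averaged 28.4 CPM, near its DMSO mean, and BTRC 24.9 CPM, so the change of order came with the lower level of BTRC.

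Relatives were also compared within each library, where the scaling cancels. Of 9 pairs, 5 had log2 ratios that did not overlap between groups. The share among ratios of other gene pairs was not computed, and 37.1% of single genes tested did not overlap. The 5 pairs were AXIN2 to AXIN1, with a difference of -0.82 between AVJ16 and DMSO, BTRC to FBXW11 at -0.59, TCF7 to TCF7L2 at -0.72, LEF1 to TCF7L2 at -0.47 and NKD1 to NKD2 at -1.34. The exact two-sided permutation p was 0.10 for each (0.18 adjusted over the 9 pairs, n = 3 in each group), the smallest the design allows, so that none could pass 0.05. For NKD1 to NKD2 the difference was -1.85 without D and -0.88 without F. For TCF7 to TCF7L2 it was -0.53 without D, as the log2 ratio was -1.68 in D and -0.88 and -1.30 in E and F. This pair and LEF1 to TCF7L2 share TCF7L2, which was high in D alone, so they are not separate results. The groups overlapped for APC2 to APC at -0.52, or -0.27 without D, GSK3B to GSK3A at -0.28, TCF7L1 to TCF7L2 at -0.13 and CTNNB1 to JUP at -0.13, with exact p of 0.20, 0.20, 0.60 and 0.40.

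Other proteins of the pathway were counted by role. Over all genes tested, 8.66% were lower and 5.79% higher, or 19.6% and 17.6% without D. Of 24 tested partners of the destruction complex, 2 fell (8.33%, near the share of all genes), 0 rose and 22 did not pass. Their median log2 fold change was 0.01. The falls were APC2 and AMER1, a membrane adaptor that binds APC, which fell by 0.53 (adjusted p = 0.0278, edgeR), a call lost when any library but D was left out (at most 0.13). The count was 1 without A, B, C, E or F, and without D the list held 5 falls and 2 rises. SKP1, CUL1 and RBX1, which build the ligase around BTRC, were at 0.07, -0.28 and -0.37 on the log2 scale and did not pass (0.657, 0.0770 and 0.306 after adjustment). Without D, CUL1 fell by 0.31 (adjusted p = 0.00536, edgeR), and RBX1, low in D alone, was at -0.12. The priming kinase CSNK1A1 was at 0.16 (adjusted p = 0.435).

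Of 9 tested genes for Dishevelled and its regulators, 1 fell (11.1%, against 8.66% of all genes), 0 rose and 8 did not pass. Their median was -0.36. DIXDC1, which shares the polymerising domain of Dishevelled and the axins, fell by 0.70 (adjusted p = 0.0106, edgeR), and this call was lost without A, C or F, at up to 0.0638. The Dishevelled genes DVL1, DVL2 and DVL3 had log2 fold changes of 0.07, 0.12 and -0.01 and did not pass. Library D was low for DVL1, at 97.4 CPM against 162 and 165 CPM in E and F, and for DVL2, at 80.4 against 125 and 122 CPM. Without D both passed as higher, at 0.28 (adjusted p = 0.0251, edgeR) and 0.29 (adjusted p = 0.00856), and the list held 3 falls and 2 rises.

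Of 22 nuclear partners, 3 fell (13.6%, against 8.66% of all genes), 0 rose and 19 did not pass, with a median of -0.08. TLE4, a corepressor that TCF factors recruit when beta-catenin is absent, was at 53.3, 54.5 and 52.5 CPM in A, B and C and at 26.1, 23.4 and 22.4 CPM in D, E and F. It fell by 1.16 (SE 0.11, adjusted p = 0.000839, edgeR), more than any of the TCF factors. The corepressor TLE3 fell by 0.61 (adjusted p = 0.0118) and SMARCA4, a chromatin remodeller that binds beta-catenin, by 0.78 (adjusted p = 0.0125). These calls were lost without A or B for TLE3, at up to 0.0611, and without B or F for SMARCA4, at up to 0.0727. The coactivators BCL9 and EP300 had log2 fold changes of -0.30 and -0.52 and did not pass (adjusted p of 0.170 and 0.124). EP300 was at 56.7 CPM in D and at 31.1 and 34.3 CPM in E and F, and without D both genes fell, by 0.41 for BCL9 (adjusted p = 0.00373, edgeR) and by 0.84 for EP300 (adjusted p = 5.55e-06). The count of falls was 1 without B, and without D the list held 9 falls and 3 rises.

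Of 7 tested partners of beta-catenin at adherens junctions, 3 fell (42.9%, against 8.66% of all genes), 0 rose and 4 did not pass. Their median was -0.21. Besides JUP, CTNNA2, a neuronal alpha-catenin, fell by 1.25 (adjusted p = 0.00768, edgeR), a call lost without F at 0.0503. Its level was low, at 65, 80 and 57 counts in A, B and C and 34, 24 and 30 in D, E and F. The E-cadherin gene CDH1 fell by 2.53 (SE 0.41, adjusted p = 0.00571), from 28, 48 and 30 counts in A, B and C to 4, 2 and 13 in D, E and F. At such counts single libraries moved it between -3.40 without F and -2.15 without E, and the call was kept. CTNNA1, the alpha-catenin that is abundant here, and N-cadherin CDH2 had log2 fold changes of 0.03 and -0.21 and did not pass, but CDH2 fell by 0.40 without D (adjusted p = 0.00191, edgeR). Without F the count of falls was 1.

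Of 21 tested targets of beta-catenin in other cell types, beyond the 10 genes, 6 fell, 1 rose and 14 did not pass. The falls were 28.6% of the list, against 8.66% of all genes, and the median was -0.38. The receptor genes TNFRSF19 and LGR5 had log2 fold changes of -1.05 (adjusted p = 0.0108, edgeR) and -1.64 (adjusted p = 0.0311), and the inhibitor of differentiation ID2 fell by 0.61 (adjusted p = 0.0142). TNFRSF19 had 63, 67 and 54 counts in A, B and C and 25, 34 and 35 in D, E and F. LGR5 had 38, 58 and 33 counts in A, B and C and 24, 6 and 12 in D, E and F. Its call was lost when any library but D was left out (at most 0.13). TNFRSF19 and ID2 lost theirs without A, C or F, at up to 0.0624 and 0.0827. CD44 rose by 0.41 (adjusted p = 0.0384). MYC and CCND1, the targets most often named in colon cancer, had log2 fold changes of 0.36 and 0.27 and did not pass (adjusted p of 0.156 and 0.0801). MYC was at 273 CPM in D, within the controls' range of 244 to 305 CPM, and at 394 and 398 CPM in E and F. Without D both rose, MYC by 0.52 (adjusted p = 0.000355, edgeR) and CCND1 by 0.24 (adjusted p = 0.0201), and LGR5 was at -2.40. The count of falls was 0 without A, C or F, 2 without B or E, and 8 without D, where 5 targets rose, so the balance of the list rested on single libraries. The rise of CD44 was lost with library size alone (0.0773) and when any library but D was left out (at most 0.177). The study chose WNT genes for follow-up from these same libraries, and the lists used here were chosen with results known, so their direction is not independent evidence.

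**Figure D4:**
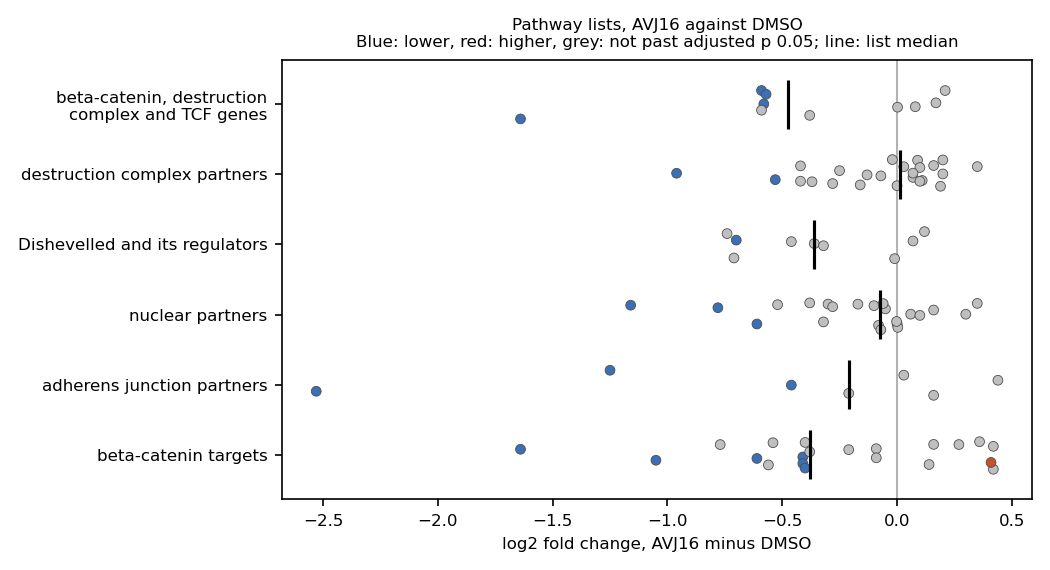
Log2 fold change (x axis, AVJ16 minus DMSO, all 6 libraries) of each tested gene of the 10-gene set and of 5 pathway lists (y axis), with list medians as vertical lines. Genes that passed an adjusted p of 0.05 are blue when lower and red when higher, and CDH1, at -2.53, lies farthest from 0.

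IGF2BP1, the target of AVJ16, averaged 266 ± 1.49 CPM in the controls and 246 ± 11.7 CPM after AVJ16 (SD, n = 3). Its log2 fold change was -0.11 (adjusted p = 0.440, edgeR). The groups did not overlap, at 266, 267 and 264 CPM in A, B and C and 240, 239 and 260 CPM in D, E and F. The same held for 37.1% of all genes tested.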

How the data were processed

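The authors deposited a table of raw read counts for 22004 genes in 6 H1299 libraries (3 DMSO, 3 AVJ16). Per the labels and the methods of the study, single-end reads of 75 bases from a stranded poly(A) kit were trimmed with cutadapt 2.10, aligned to GRCh38 (Ensembl release 99) with TopHat2 2.1.1 and counted with HTSeq 2.01. Genes with fewer than 10 counts over all libraries had been removed. Whether strand was used in counting is not stated there. The 6 columns of normalised counts were not used.

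Counts were tested with edgeR 4.0.16 (R 4.3.3): filterByExpr (minimum count 10, minimum total 15), TMM scaling, a prior count of 0.125 and the robust two-sided quasi-likelihood F test, with Benjamini-Hochberg adjustment over the 16330 genes tested and a threshold of 0.05. The script was tested on simulated data. SE values were the absolute log2 fold change over the square root of F, and 95% intervals were built from it. The biological coefficient of variation was 13.5%, and depth ranged from 19353830 to 30253721 counts. CPM per kilobase used the union of exons in GENCODE 44. Alternatives were 3 other scalings, TMM without the 13 mitochondrially encoded genes, no filter, DESeq2 1.42.0 without independent filtering, voom with sample weights (limma 3.58.1), and leaving out each library. Named genes were the 10 genes, their paralogs, IGF2BP1 and up to 4 genes per list past the threshold with the smallest p. Further genes in the lists (DVL1, DVL2, DVL3, SKP1, CUL1, RBX1, CSNK1A1, BCL9, EP300, CTNNA1, CDH2, MYC, CCND1) were named for their role after their values had been seen. The members and lists were chosen with earlier results of these data known. One marker of the line is not reported here.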

Additional observations from a re-analysis of the deposited data

How the results depend on the processing

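Of 130 values of the 10 genes under other settings, 105 kept their direction and side of the threshold, 9 lost the call, 7 gained it and 9 turned sign, all of the last among genes that had not passed. Library size alone shifted the median log2 fold change of all genes to -0.12. With it, 2196 genes were lower and 522 higher, against 1414 and 945 with TMM; falls were 4 among partners of the complex, 3 for Dishevelled and 5 among nuclear partners, and 0 targets rose. With voom weights, where D had a weight of 0.155, 3737 genes were lower and 3399 higher, 1 of the 10 genes rose, 6 partners of the complex fell and 3 rose, 4 Dishevelled genes fell and 2 rose, 9 nuclear partners fell and 2 rose, and 5 targets rose. DESeq2 called 4 targets lower and 2 higher. DESeq2 size factors and no filter each called 4 lower and 1 higher, against 6 and 1 with TMM and the filter. Without 1 library, the falls ranged from 2 to 6 and the rises from 0 to 1 among the 10 genes, 514 to 3287 and 222 to 2960 over all genes, 1 to 5 and 0 to 2 among partners of the complex, 0 to 3 and 0 to 2 for Dishevelled, 1 to 9 and 0 to 3 among nuclear partners, and 0 to 8 and 0 to 5 among targets, and the falls from 1 to 4 at junctions. The cause was not tested.

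Signs turned for GSK3B (-0.03, library size), TCF7L2 (-0.03 with voom, -0.04 without D, and up to 0.28 without F), TCF7L1 (-0.11 with library size, -0.0044 with upper quartile, -0.01 with voom, -0.05 without A, -0.06 without C and -0.11 without D, and up to 0.13 without B) and FBXW11 (-0.11 with library size, -0.008 with upper quartile, -0.0031 with voom, -0.02 without B, -0.02 without D and -0.03 without F, and up to 0.07 without E). No paired analysis was possible because the columns of the table carry no replicate numbers. NKD1 and AXIN2 rest on 18 to 136 counts per library, which limits their precision.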
